A study of Prunus dulcis and Malus domestica and Olea europaea with 8 samples.

Results

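The miR156 and miR535 families were described across small RNA-seq libraries of 8 plant-based foods. Every miRNA gene of the peach annotation named as miR156, miR157, or miR535 was taken as a member, which gave 12 of the 209 genes in the count table: 9 lettered miR156 genes (MIR156a to MIR156i), a further gene named mir-156 without a letter, and the pair MIR535a and MIR535b. No miR157 gene was annotated. The libraries were made from the edible portion of almond (Prunus dulcis), apple (Malus domestica), olive (Olea europaea), orange (Citrus sinensis), pear (Pyrus communis), spinach (Spinacia oleracea), tomato (Solanum lycopersicum), and walnut (Juglans regia). Each food was a group of its own with 1 library, which leaves foods to be compared by counting error alone, without replicates. According to the study, the foods other than almond came from supermarkets and were sequenced without heating. Source and treatment of the almond, and cultivar, ripeness, and plant age of all foods were not given in the sources used here.

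miR156 is among the most conserved plant miRNAs. It pairs with mRNAs of SPL (SQUAMOSA promoter-binding protein-like) transcription factors, which promote the change from the juvenile to the adult phase, and its level is known to be high in young tissue and to fall as a plant ages. In tomato, the ripening regulator Colorless non-ripening is an SPL gene with a miR156 site. miR535 resembles miR156 in sequence and has been described, in rice among others, as another regulator of SPL mRNAs. The genes annotated in peach produce these miRNAs in peach, and reads of the other plants were counted on them by similarity.

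Levels were expressed as the share of all counts on the 209 miRNA genes of a library. Apple had the largest total, 212021 counts, and walnut the smallest, 39249 (median of all libraries 67321), and the highest gene of a library took from 13.3% of them in almond to 45.7% in pear. Intervals are exact 95% intervals (Clopper-Pearson where a share is given and conditional binomial where 2 counts are divided). They cover counting error only, since each food had 1 library. The reads carried no molecular identifiers, and the intervals treat each read as independent, so they can be too narrow. A count of 0 was given an upper limit of 3 counts. Reads of 15 to 30 bases were counted per gene, and no length scaling was applied between genes. Copies of a miRNA family can give identical mature sequences, and how reads that fit several copies were divided is not given in the sources used here. Values of single copies are therefore less certain than family sums.

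All 12 genes had at least 1 count in at least 1 food, against 89.5% of all 209 miRNA genes. Olive had counts on 11 of the 12 genes, against 48.8% of all genes in that library. Almond and apple had counts on 10 each, against 58.9% and 46.4% of all genes. Orange and pear had 9 each, where 46.4% and 50.2% of all genes were counted. Spinach had 8 against 33.0%, walnut 7 against 32.5%, and tomato 6 against 50.7%. The members were thus counted more often than miRNA genes in general in 7 libraries, and at about the background in tomato. MIR156d was the only member counted in all 8 foods, with as little as 1 count in apple and in tomato, whereas 9.09% of all genes were counted in all 8. In 3 foods the number rested on few reads. With a minimum of 10 counts, 5 members were left in apple, against 22% of all genes, 3 in tomato against 21.1%, and 3 in walnut against 16.3%. The other foods kept 10 members in olive against 21.5%, 9 in almond against 32.1%, and 7 each in orange, pear, and spinach against 25.4%, 27.8%, and 15.8%.

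The miR156 family held a large part of the miRNA counts in olive and was low in tomato and apple. Olive had 13012 miR156 counts, or 19.2% of its miRNA counts (95% CI 18.9 to 19.5), and miR156 was there the second-ranked family of 46 counted. Almond followed with 4344 counts and 7.62% (7.41 to 7.84). Walnut had 1397 counts and 3.56% (3.38 to 3.75), and spinach had 1901 and 3.46% (3.31 to 3.62). Orange had 1568 counts and 2.34% (2.23 to 2.46), and pear had 2523 and 2.31% (2.23 to 2.41). Apple had 1115 counts and 0.526% (0.496 to 0.558), and tomato had 270 and 0.298% (0.263 to 0.336). Fewer cells with a miRNA and less of it per cell cannot be told apart in such tissue samples.

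Along this order, the steps between walnut and spinach (ratio 1.03, 0.959 to 1.10) and between orange and pear (1.01, 0.948 to 1.08) were within counting error. The other 5 steps were larger than counting error, from 1.48 between spinach and orange (1.38 to 1.58) to 4.40 between pear and apple (4.10 to 4.73). The share was 64.6-fold higher in olive than in tomato (57.3 to 73.1), and without olive the range was 25.6-fold, from tomato to almond. The order depended on the scaling between libraries. In the deposited DESeq2-normalized values, almond had the highest miR156 sum (4146) and apple the lowest (4.63), with olive at 1779.

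The miR535 family was abundant in almond and scarce in every other library. Almond had 7649 counts, or 13.4% of its miRNA counts (13.1 to 13.7), and miR535 was there the fourth-ranked of 64 families. Spinach had 193 counts and 0.351% (0.304 to 0.405), pear had 254 and 0.233% (0.205 to 0.263), and apple had 282 and 0.133% (0.118 to 0.149). Orange had 51 counts and 0.0761% (0.0567 to 0.100). Walnut had 8 counts and olive had 11, which made shares of 0.0204% (0.00880 to 0.0402) and 0.0163% (0.00812 to 0.0291). Tomato had 0 of 90651 counts, and 3 counts, the limit, would make a share of 0.00331%. The almond share was 38.2 times that of spinach, the next food (33.1 to 44.3). The step between walnut and olive was within counting error (1.25, 0.438 to 3.42), and every other step between foods with counts exceeded it. Whether the small counts in walnut and olive were carried over between libraries was not tested.

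**Figure D1:**
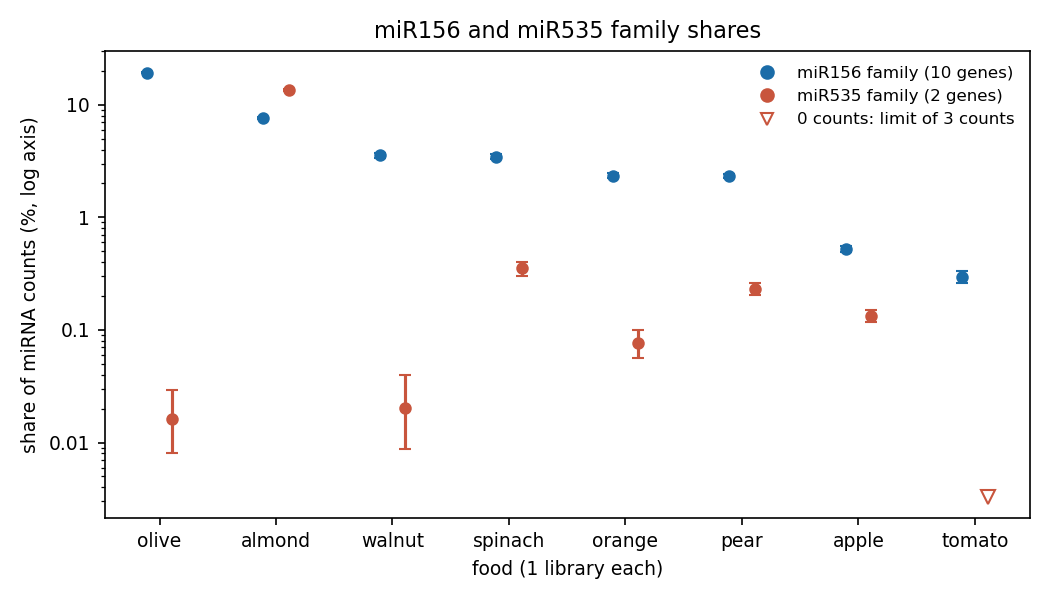
Share of miRNA counts (percent, log axis) on the miR156 family (blue) and the miR535 family (red) in 1 library per food, with exact 95% intervals for counting error, foods ordered by miR156 share. Olive has the highest miR156 share (19.2%) and almond is the only food whose miR535 point (13.4%) lies above its miR156 point (7.62%). The open triangle is the limit of 3 counts for tomato, which had 0 miR535 counts.

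In most foods, the majority of the miR156 counts lay on 1 peach gene, and that gene differed between foods. Over the 8 foods, 4 different genes led: MIR156e in almond, pear, and spinach, MIR156b in olive and apple, mir-156 in walnut and tomato, and MIR156f in orange. The leading gene held 91.1% of the miR156 counts in olive (90.6 to 91.6), 84.3% in walnut (82.3 to 86.2), and 77.4% in almond (76.1 to 78.6). It held 77.4% in tomato (71.9 to 82.3), 76.5% in pear (74.8 to 78.1), and 55.4% in spinach (53.1 to 57.6). In apple, MIR156b with 51.2% (48.2 to 54.2) stood close to MIR156e with 44.4%. Orange was spread most widely, with 43.4% on MIR156f (41.0 to 45.9) and 29.4% on MIR156h. The effective number of genes, which is 1 over the sum of squared shares, was 3.35 in orange, 2.63 in spinach, and 2.17 in apple. It lay between 1.20 in olive and 1.65 in pear in the other 5 foods. A change of leader between foods was not particular to miR156: among the 7 other families with at least 5 annotated genes, the number of leaders ran from 1 (miR159) to 6 (miR171).

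**Figure D2:**
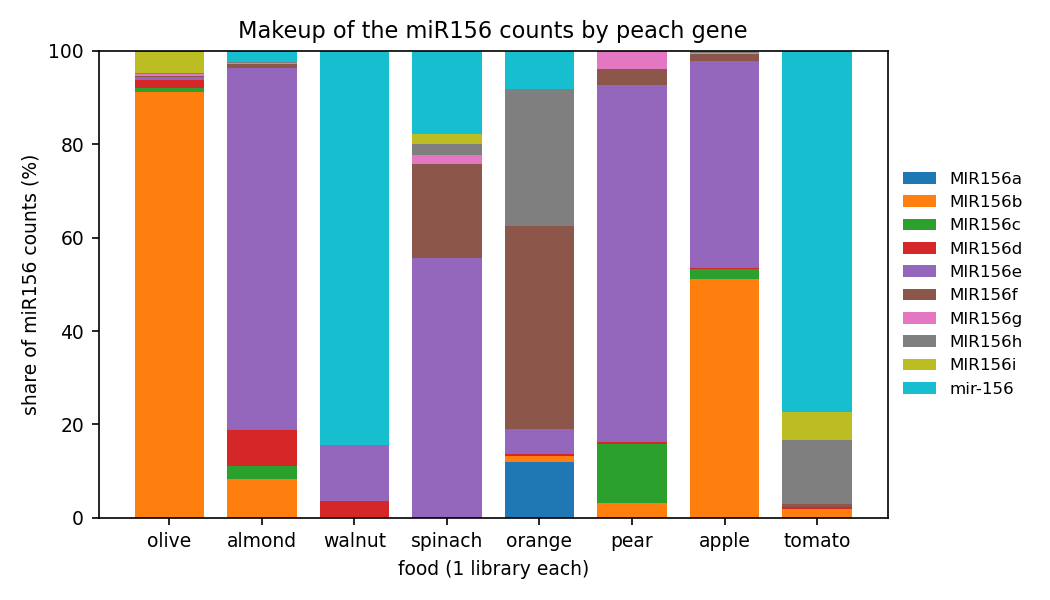
Percent of the miR156 counts of each food on each of the 10 miR156 genes of peach, stacked to 100, with 1 library per food. MIR156b fills most of the olive bar (91.1%), MIR156e most of the almond (77.4%) and pear (76.5%) bars, mir-156 most of the walnut (84.3%) and tomato (77.4%) bars, and the orange bar is divided over several genes.

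The makeups of a pair of foods were compared by the overlap of their percentages over the 10 miR156 genes, where 100% stands for identical makeups. The median over the 28 pairs was 13.2%. Almond and pear overlapped most, at 83.9%, followed by tomato and walnut at 77.9% and pear and spinach at 61.1%. Olive and walnut overlapped least, at 2.74%. High overlap was found within the Rosaceae (almond with apple 56.3%, apple with pear 51.5%) and also between plants of different families.

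MIR156e (ENSRNA049996234; G1, 34960231 to 34960314, + strand, assembly Prunus persica NCBIv2) had at least 10 counts in 7 foods, more than any other member. It had 3362 counts in almond, 1930 in pear, 1053 in spinach, 495 in apple, 166 in walnut, 86 in orange, and 75 in olive. Tomato had 0, which allows up to 0.00331% of its miRNA counts. As shares, almond (5.90%) stood above spinach (1.92%) and pear (1.77%), and the remaining foods were below 0.5%.

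MIR156b (ENSRNA049996963; G6, 1928560 to 1928648, - strand) was mostly an olive count. Olive had 11859 counts, the second-highest of all genes in that library, or 17.5% of its miRNA counts (17.3 to 17.8). Apple had 571 counts, almond 361, pear 81, orange 21, tomato 5, walnut 1, and spinach 0. In share the next food was almond at 0.633%.

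The gene named mir-156 (ENSRNA050003808; G7, 21693889 to 21693971, + strand) led in walnut with 1178 counts and in tomato with 209. Spinach had 337 counts, orange 127, almond 101, olive 29, pear 1, and apple 0. Its walnut share of 3.001% (2.83 to 3.17) made it the fifth-ranked gene of that library, while the tomato share was 0.231% (0.2004 to 0.264). With this gene left out, the miR156 share was 285-fold higher in olive than in tomato.

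MIR156c (ENSRNA049997146; G7, 21702295 to 21702495, + strand) lies 8323 bp from mir-156 on the same strand, and reads of most foods fell on only 1 of these neighbours. Pear had 319 counts on MIR156c and 1 on mir-156, and apple had 24 and 0. Walnut, spinach, tomato, and orange had 0 counts on MIR156c beside 1178, 337, 209, and 127 on mir-156. Almond (118 and 101) and olive (116 and 29) had counts on both. MIR156c held 53.9% of the pair in almond (47.0 to 60.6) and 80.0% in olive (72.6 to 86.2).

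MIR156f (ENSRNA049996556; G3, 16336244 to 16336387, + strand) and MIR156h (ENSRNA049996563; G3, 16336810 to 16336918, + strand) are the closest neighbours among the members, 422 bp apart. MIR156f had 681 counts in orange, 383 in spinach, 87 in pear, 42 in almond, 35 in olive, 16 in apple, 2 in tomato, and 0 in walnut. MIR156h had 461 in orange, 44 in spinach, 40 in olive, 37 in tomato, 10 in almond, 2 in apple, and 0 in pear and walnut. Both were highest in orange, at 1.02% and 0.688% of its miRNA counts. The split between them was not constant: MIR156f held 89.7% of the pair in spinach (86.4 to 92.4), 59.6% in orange (56.7 to 62.5), 46.7% in olive (35.1 to 58.6), and 5.13% in tomato (0.627 to 17.3).

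The other miR156 genes were MIR156d, MIR156i, MIR156g, and MIR156a. MIR156d (ENSRNA049996241; G1, 35792894 to 35793003, - strand) had 341 counts in almond, 225 in olive, and 50 in walnut, and at most 7 in each of the other 5 foods. MIR156i (ENSRNA049996627; G3, 26355154 to 26355275, - strand) had 582 counts in olive, 42 in spinach, and 16 in tomato, then 4 in apple, 1 in walnut, and 0 in almond, orange, and pear. MIR156g (ENSRNA049996926; G5, 17447875 to 17447956, + strand) had 98 counts in pear, 51 in olive, 39 in spinach, and 9 in almond, then 2 in apple, 1 in walnut, and 0 in orange and tomato. MIR156a (ENSRNA049997132; G7, 18998140 to 18998228, - strand) was counted only in orange, with 186 counts or 0.278% of the miRNA counts (0.239 to 0.320). The 0 counts of MIR156a elsewhere allow shares from 0.00141% in apple to 0.00764% in walnut.

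**Figure D3:**
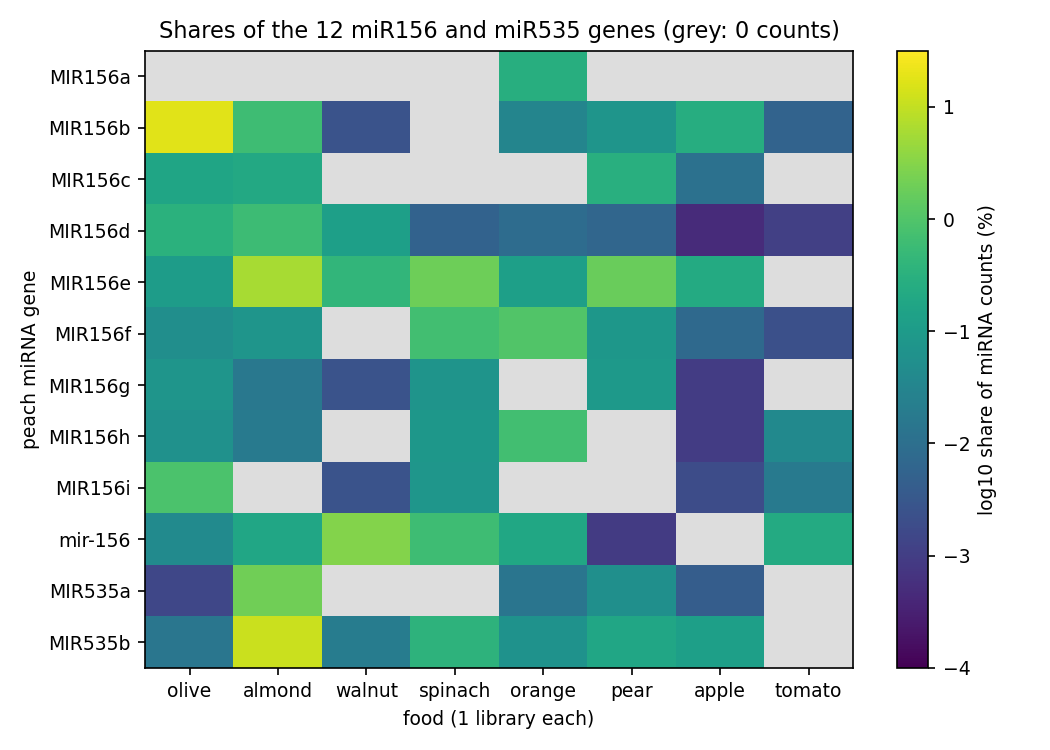
Share of miRNA counts (log10 of percent, colour) for each of the 12 genes in the 8 libraries, with grey for 0 counts. MIR156b in olive (17.5%) and MIR535b in almond (11.4%) are the highest fields, MIR156a is coloured in orange alone, and tomato has no colour for MIR535a and MIR535b.

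The miR535 genes lie 3611 bp apart on the + strand of G8, MIR535b (ENSRNA049997189) from 18430310 to 18430438 and MIR535a (ENSRNA049997194) from 18434050 to 18434154. MIR535b had 6496 counts in almond, 273 in apple, 195 in pear, 193 in spinach, 42 in orange, 10 in olive, 8 in walnut, and 0 in tomato. MIR535a had 1153 in almond, 59 in pear, 9 in apple, 9 in orange, 1 in olive, and 0 in spinach, walnut, and tomato. MIR535b led in every food with counts. It held 84.9% of the family in almond (84.1 to 85.7), 76.8% in pear (71.1 to 81.8), 96.8% in apple (94.0 to 98.5), and all 193 counts in spinach (98.1 to 100). The intervals of pear, apple, and spinach did not overlap that of almond, while that of orange (82.4%, 69.1 to 91.6) did.

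**Figure D4:**
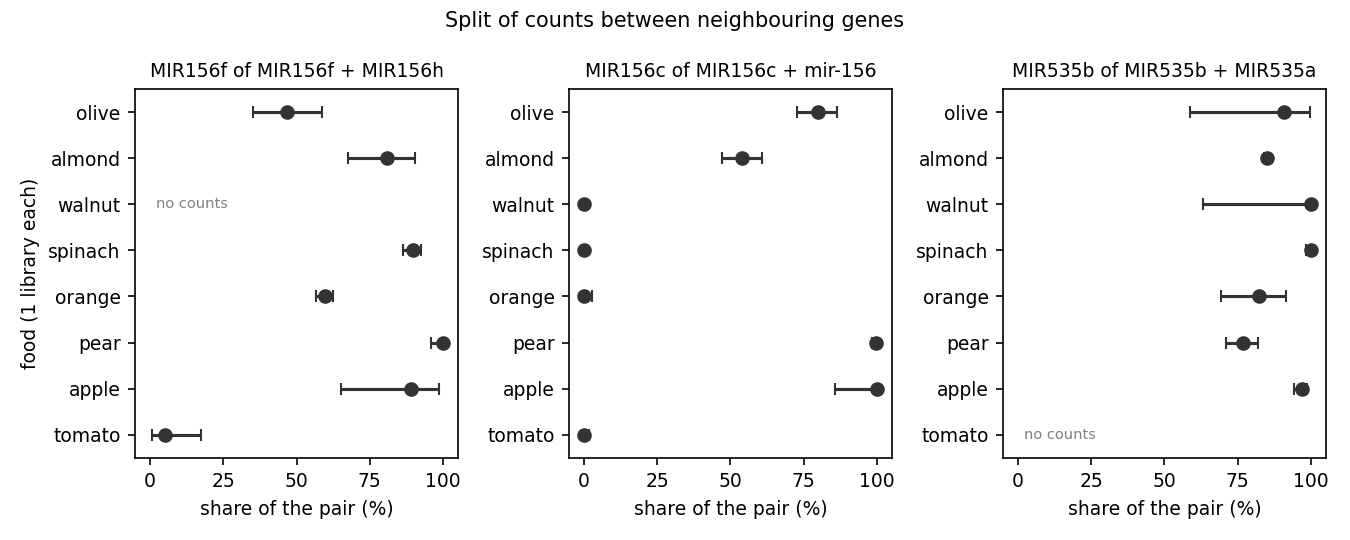
Percent of the counts of 3 neighbouring gene pairs on the gene named first (MIR156f of MIR156f and MIR156h, MIR156c of MIR156c and mir-156, MIR535b of MIR535b and MIR535a), by food, with exact 95% intervals for counting error. MIR156c takes 0 in walnut, spinach, orange, and tomato and 99.7% in pear, whereas MIR535b stays at 76.8% or above in all foods with counts.

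Concentration of the share in 1 food was not particular to the members. Of the 83 genes with at least 100 counts over the 8 foods, 24.1% had more than 90% of their summed share in 1 library, and 4 of the 12 members did. These were MIR156a (all in orange), MIR535a (96.5% in almond), MIR156b (94.5% in olive), and MIR535b (93.8% in almond). Except for MIR156a, they were not absent elsewhere. With the food of highest share included, MIR156b had at least 10 counts in 5 foods, MIR535b in 6, and MIR535a in 2. Both limits of this count (100 counts and 90%) were chosen after the values were seen.

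The balance between the families is a ratio within a library and so does not depend on scaling between libraries. Almond was the only food with more miR535 than miR156 counts. miR535 made up 63.8% of the counts of both families there (62.9 to 64.6), or 1.76 miR535 counts per miR156 count (1.70 to 1.83). It made up 20.2% in apple (18.1 to 22.4), 9.22% in spinach (8.01 to 10.5), 9.15% in pear (8.10 to 10.3), and 3.15% in orange (2.35 to 4.12). In walnut it was 0.569% (0.246 to 1.12) and in olive 0.0845% (0.0422 to 0.151), where 1183 miR156 counts were found per miR535 count. In tomato miR156 was at least 90-fold higher, with the limit of 3 counts for miR535. At its lower miR156 depth, the tomato balance could not be told from that of walnut or of olive.

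**Figure D5:**
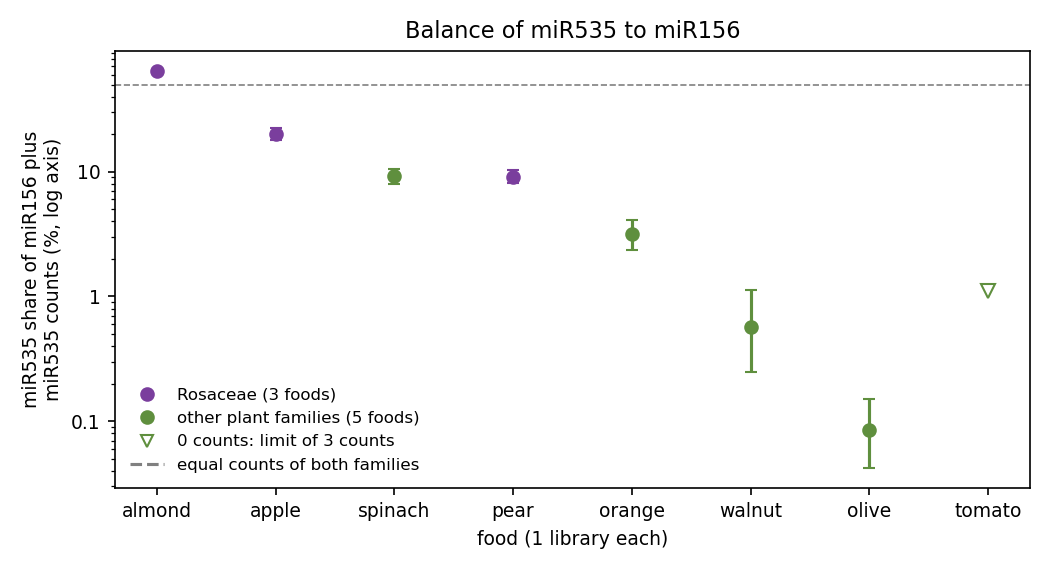
Percent of miR535 among the counts of both families (log axis) by food, with exact 95% intervals for counting error, Rosaceae in purple and other plant families in green. Only almond (63.8%) lies above the dashed line of equal counts. Pear (9.15%) lies level with spinach (9.22%) and apple (20.2%) lies above them, and the open triangle marks the limit of 3 counts in tomato.

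The reads were counted on the peach genome. Peach belongs to the Rosaceae, as do almond, apple, and pear, and almond is of the same genus. Whether these 3 foods differed from the other 5 was tested by an exact two-sided permutation test of log2 values over all 56 splits, in which the smallest possible p is 0.0179. A single result at that p would have an adjusted p of 0.0536, so no test could pass 0.05 on its own. For the miR156 share, the mean log2 difference (Rosaceae minus others) was -0.40 (exact permutation p = 0.804, Benjamini-Hochberg adjusted over 3 tests 0.804). The miR156 shares of the groups overlapped, from 0.526% to 7.62% in the Rosaceae and from 0.298% to 19.2% in the others. For the miR535 share, the difference was 4.58 (exact permutation p = 0.0714, adjusted 0.107). The miR535 shares ran from 0.133% to 13.4% in the Rosaceae and from 0 to 0.351% in the others, so that spinach lay above apple and pear. For the balance of miR535 to miR156, the difference was 4.99 on the log2 scale (exact permutation p = 0.0536, adjusted 0.107), with spinach again above pear. Thus none of the 3 tests passed 0.05. On the miR535 share and the balance, spinach was the only other food above any Rosaceae food. Leaving it out therefore put all 3 Rosaceae foods on top there. The exact permutation p of the miR535 share and of the balance then took its smallest value over 35 splits (0.0286, adjusted 0.0429). This result follows from the omission itself, and both measures use the same miR535 counts, so no conclusion is drawn from it. With any other single library left out, the adjusted p of the same test stayed above 0.05. Relatedness to the reference genome and a difference between the plants cannot be told apart here.

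In plant development, miR172, which acts on AP2-like transcription factors, is known to rise as miR156 falls. Peach has 4 annotated miR172 genes and no annotated gene of miR529, another family that acts on SPL mRNAs. Spinach had 1683 miR172 counts, of which 1429 were on MIR172c, beside 1901 of miR156, a ratio of miR156 to miR172 of 1.13 (1.06 to 1.21). The ratio was 1.15 in tomato (0.965 to 1.38) and 4.87 in orange (4.32 to 5.51). It was 24.2 in apple, 66.4 in pear, 175 in walnut, 543 in almond, and 867 in olive. The last 3 rested on 8, 8, and 15 counts of miR172, and their intervals were wide (525.7 to 1550 in olive).

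The shares of miR156 and miR535 did not follow each other closely over the 8 foods (Spearman's rho 0.19, Pearson's r of log2 shares 0.43). Between miR156 and miR172, rho was -0.38. Among 39 other genes with at least 10 counts in at least 4 foods, the pattern most like that of miR156 was found for MIR403 (rho 0.86), a MIR159 gene (ENSRNA050003181, rho 0.79), and a MIR390 gene (ENSRNA049996971, rho 0.74). For miR535 these were MIR167c (rho 0.62), a MIR398 gene (ENSRNA050003695, rho 0.56), and MIR482c (rho 0.55). These coefficients describe 8 single libraries whose shares have a common total, and the highest of 39 were picked.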

How the data were processed

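Small RNA-seq libraries of 8 foods, with 1 library per food, were analyzed. The authors trimmed adapters with skewer, aligned reads of 15 to 30 bases to Prunus persica NCBIv2 with ShortStack (miRBase 22 annotation, at most 2 seed mismatches), and counted them by strand with HTSeq. Tool versions were not given in the sources used here. Per gene, the raw table deposited by the authors holds whole-number counts without normalization. The normalized table deposited by the authors holds a signal, the counts divided by 1 DESeq2 factor per library (1.05 to 241). The input mass of the nuts differed from that of the other foods and is stated differently for walnut by the labels and the paper.

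Shares, intervals, balances, and overlaps were computed from the raw counts with Python 3.11.15, numpy 2.4.6, pandas 2.3.3, and scipy 1.17.1, and plots were drawn with matplotlib 3.10.9. The members, lists, and tests were chosen with earlier results of these data known. All 12 members, the miR172 genes, and, per family, the 3 genes of most similar pattern (by rho, ties by Pearson's r of log2 of the percent share plus 0.001) were named. Alternatives were other scalings (deposited values, edgeR 4.0.16 TMM, DESeq2 1.42.0 poscounts, in R 4.3.3), count minimums of 3 and 10, the expected gene number at 39249 counts, the value given to a count of 0, ranks, other sets of miR156 genes, and leaving out each library. The calculations were tested on simulated data. Mature sequences were not used here.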

Additional observations from a re-analysis of the deposited data

Results flagged for a closer look

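Dixon's test was applied over the 8 libraries to 5 measures, with a critical value of 0.526 for the gap to the nearest library over the whole range. Each library is of another plant and not a replicate of the rest. Chance alone sets about 1 in 20 groups apart where values are normally distributed. The family shares entered as untransformed percentages, which were skewed, with medians of 2.90% for miR156 and 0.105% for miR535. Standing apart therefore refers to the percent scale, and log2 shares were not tested in this way. The olive library stood apart by its miR156 share of 19.2% (gap over range 0.613). The almond library stood apart by its miR535 share of 13.4% (0.974). No library stood apart by the log2 balance of the families, the number of members counted, or the percent of miR156 counts on the leading gene.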

How the results depend on the processing

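The fold range of the miR156 share (64.6) became 896 in the deposited normalized values (almond over apple), 224 with TMM, 51.9 with poscounts factors, 285 without the gene mir-156, and 25.6 without olive, the last chosen after seeing the data. That of miR535 (at least 4055, almond over tomato) became at least 105455, 2614, and 1323 under the first 3 of these settings, and 106 without almond, also chosen after seeing the data (spinach over tomato). Without each library's highest gene in the denominator, both stayed within their counting interval or 1.5 times (60.7 and 3373).

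Leaving out each library in turn, the log2 difference between Rosaceae and other foods ran from -1.33 to 0.60 for the miR156 share, with the sign turned without apple (0.60) or olive (0.30). It ran from 2.50 to 5.83 for the miR535 share and from 3.83 to 5.89 for the balance. Both passed an adjusted 0.05 only without spinach (5.46 and 5.78), the one other food that lay above Rosaceae foods on them. Leaving it out fixed that order, and both use the same miR535 counts, so passing there decides nothing. Without almond, apple, or pear, 21 splits remain and a lone result cannot pass: the balance without pear reached the smallest exact permutation p of 0.0476 (adjusted 0.143). The other alternatives of the 3 tests kept the direction, but some were weaker. For the miR535 share, the exact permutation p was 0.232 in the deposited values (adjusted 0.348) and 0.143 with ranks (adjusted 0.214). With TMM it was 0.0536 (adjusted 0.0804). For the balance, the exact permutation p was 0.0714 with ranks (adjusted 0.214) and 0.0893 without the gene mir-156 (adjusted 0.134). Without each library's highest miR156 gene, the balance (4.68) reached the smallest exact permutation p of 56 splits (0.0179, adjusted 0.0536). The 4 leading miR156 genes and the 12 genes counted were the same in number under their alternatives. Per food, a minimum of 3 counts left walnut with 4 of 7 genes, and expected numbers at the depth of walnut stayed within 1.5 times in all 8 foods. No paired analysis was possible because each food had 1 library. The miR535 shares of walnut, olive, and tomato rest on 8, 11, and 0 counts.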
